A study of Sus scrofa with 6 samples.

Results

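Genes for secreted morphogens of the WNT, BMP and TGF-beta, and FGF systems, for the antagonists that bind them, and for their receptors were described across cultured marrow stromal cells of the pig jaw and shin bone. The genes were taken by their names: a single gene symbol in the array's annotation that begins with WNT, FZD, DKK, SFRP, BMP, BMPR, GDF, FGF, FGFR, INHB, GREM, ACVR, SMAD, TGFB or TGFBR, followed by a digit or a letter from A to C. Of 86 genes with such names, BMP4, SMAD6 and the binding protein gene FGFBP1 were set aside, which left 83 of 11079 named genes. The WNT system had 25 of them, the BMP and TGF-beta family 33 and the FGF system 22. The other 3, BMP1, FGFR1OP and FGFR1OP2, share the letters only, since BMP1 is a procollagen-cleaving protease and the others are named as fusion partners of an FGF receptor. No gene of the INHB family was among the 83.

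These proteins carry signals between cells. WNT ligands bind frizzled receptors and stabilise beta-catenin, with DKK proteins acting on the LRP co-receptors and SFRP proteins binding WNT ligands directly. BMP, GDF and TGF-beta ligands assemble type II and type I receptor kinases, which phosphorylate SMAD transcription factors. FGF ligands activate receptor tyrosine kinases together with heparan sulfate or, for the hormone-like members, with klotho co-receptors. In bone, BMP and WNT signals favour osteoblast formation, TGF-beta acts on matrix and on bone turnover, and FGF2 is widely used to expand marrow stromal cells in culture.

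All 6 cultures were unsorted plastic-adherent cells at passage 0 from 4-month-old female American Yorkshire pigs, grown in alpha-MEM with 20% serum to 80% confluence. In 3 cultures the marrow was from the mandibular symphysis and in 3 from the tibia, and 3 pigs were the donors for both kinds of marrow per the design text, so arrays of the groups may share an animal. The cultures had had no genetic change or drug treatment that the labels mention. Samples carry the numbers 1 to 3 in each group, and no label says that a number marks a pig. The levels are log2 values on which RMA had already made the arrays alike, with array medians from 5.63 to 5.71. A difference of 1 on this scale is a 2-fold difference, and levels of different genes do not rank their abundance, since probe sets differ in binding.

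Most stromal markers stood high. The mean of 10 measured stromal genes, among them THY1, COL1A1 and LUM, was 10.16 ± 0.12 (SD, n = 3) over the mandibular arrays and 10.22 ± 0.03 (SD, n = 3) over the tibial ones. The mean level of 8 of them lay above the upper quartile of all probe sets. CXCL12, at 4.14 to 5.06, and CD44, at 6.44 to 8.19, lay lower. Endothelial and epithelial list means lay between 4.53 and 5.16 on all arrays. Some arrays did not stand with their labelled site. The mean of 5 transcription factor genes of the jaw (ALX1, LHX8, PAX9, MSX1 and HAND2) was 7.69, 4.71 and 7.35 on the arrays labelled mandibular 1 to 3, and 4.83, 4.67 and 7.44 on tibial 1 to 3. The mean of 4 HOX genes (HOXA5, HOXA7, HOXA9 and HOXD10) was 4.67, 7.06 and 4.73 against 6.93, 7.22 and 5.17. On both lists the array labelled mandibular 2 was close to tibial 1 and tibial 2, and the array labelled tibial 3 was close to mandibular 1 and mandibular 3. Every comparison of sites below is by label, and values without both of these arrays stand in a paragraph of their own.

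None of the 83 genes differed between the labelled sites by limma's moderated test. With p adjusted by Benjamini-Hochberg over all 27558 probe sets, 0 of the 83 and 0% of all probe sets passed the threshold of 0.05, and the adjusted p was 0.9995 for each of the 83. At an unadjusted p under 0.05 there were 2 genes, ACVR1C and FZD3, or 2.41% of the 83 against 3.03% of all probe sets. Both had the higher mean in mandibular cultures, the direction of 1.35% of all probe sets, while 0 of the 83 stood against 1.69% on the tibial side. The site means were higher in mandibular cultures for 41 genes and higher in tibial cultures for 42. The median difference, mandibular minus tibial, was -0.003 for the 83 genes and 0.005 for all named genes. In 5 genes all 3 values of a site lay above all 3 of the other, which is 6.02% of the 83 against 6.92% of all probe sets. Mandibular values were the higher ones in ACVR1C, FZD3 and WNT7A, 3.61% against 3.35%, and tibial values in FGF16 and FGF23, 2.41% against 3.57%. These shares lie near those of the whole array. Leaving out 1 array raised the count without overlap, as it did over all probe sets: to 15 without mandibular 1, 12 without mandibular 2, 10 without mandibular 3, 13 without tibial 1, 10 without tibial 2 and 20 without tibial 3, where 17.4%, 17%, 12.7%, 17.3%, 15.1% and 21.7% of all probe sets did not overlap.

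**Figure D1:**
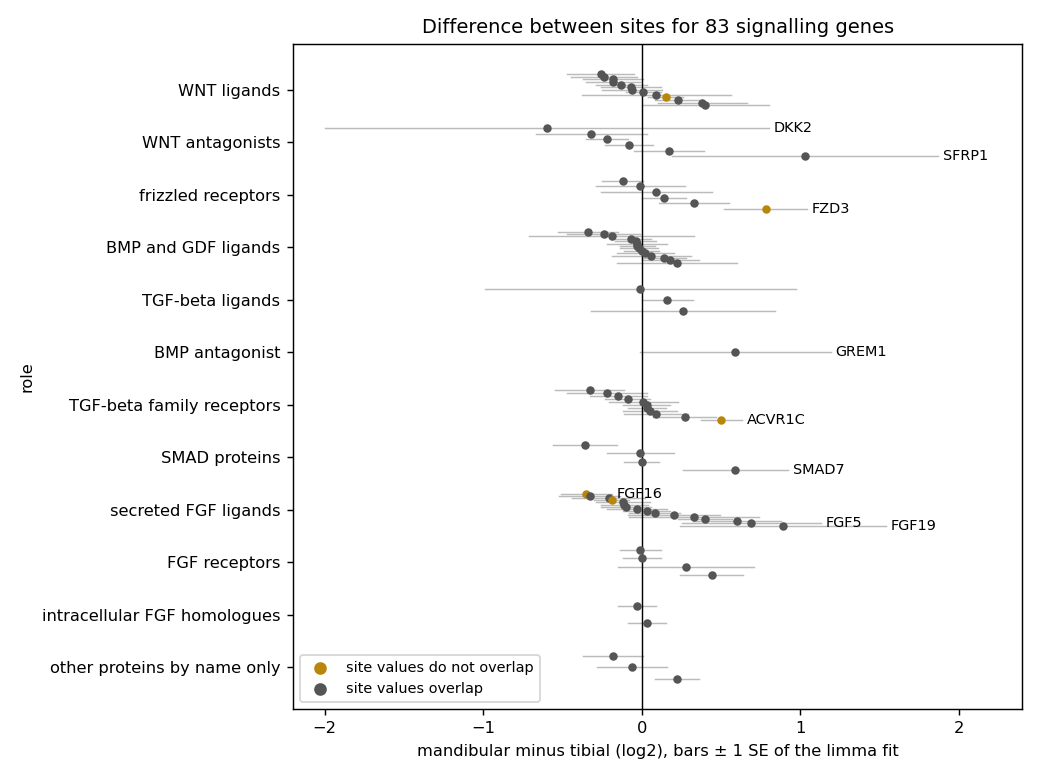
Difference between sites (mandibular minus tibial, log2, x axis) for each of the 83 genes, grouped by role on the y axis, with bars of 1 SE from limma. Most points lie close to 0, the bars of DKK2 and TGFB3 are the longest at 1.40 and 0.98 to each side, and the 5 genes without overlap between sites are in gold.

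The signalling genes varied between arrays of the same label. Their median range over the 6 arrays, highest minus lowest level, was 0.68 against 0.51 for all named genes. A range of at least 1 was seen in 19 of 83 genes, 22.9%, against 14.8% of all named genes, which were not matched for level. The mean level of 21 of the 83 lay above the upper quartile of all probe sets (7.49), that of 50 between the quartiles and that of 12 below the lower quartile (3.9). Levels under that lower quartile cannot be separated from background, as the deposited values hold no detection call. Of the 20 genes with the widest range, the site difference was smaller than its own standard error in the unpaired fit in 12. In 17 it was smaller than the SD within at least 1 site. The 20 were picked for their spread, which also widens the SE and SD, so both counts only describe these genes. The unpaired fit takes no account of pigs that the sites may share, and many of these standard errors were smaller with a replicate block.

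**Figure D2:**
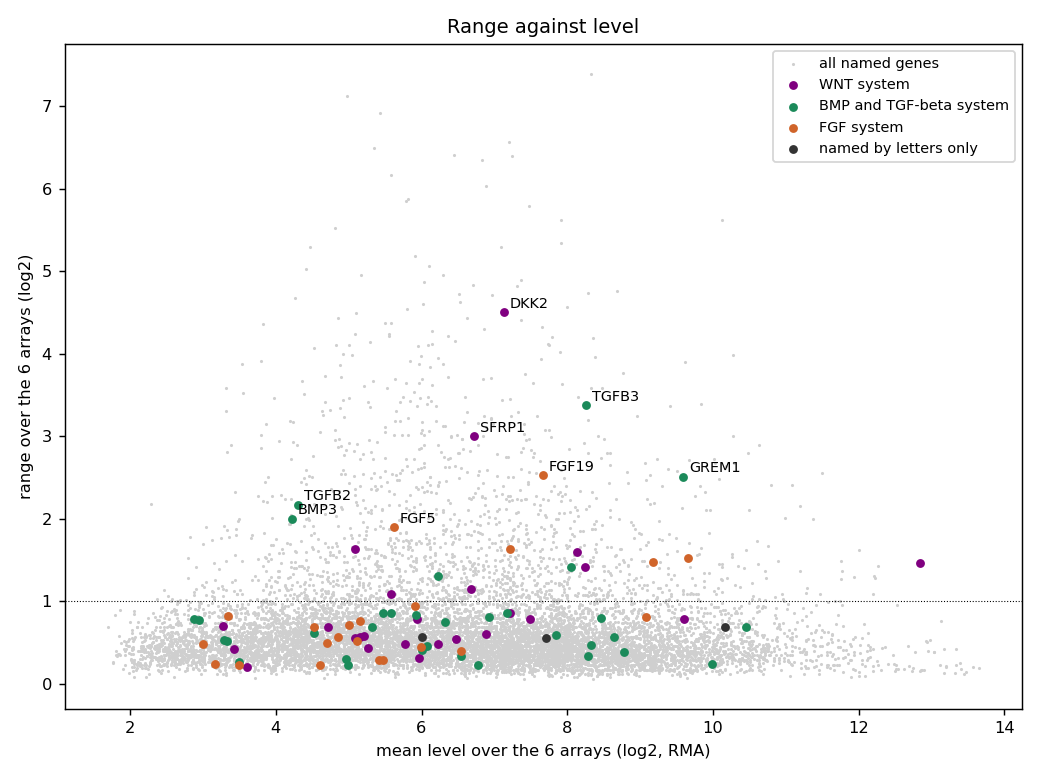
Range over the 6 arrays (log2, y axis) against mean level (log2, x axis) for all named genes in grey and for the signalling genes in colour by system. DKK2 has the widest range of the 83 at 4.51, followed by TGFB3 at 3.38 and SFRP1 at 3.00, and most signalling genes lie under the dotted line at 1.

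Extracellular WNT antagonists included 2 of the 3 genes with the widest ranges. DKK2, a dickkopf protein that binds the WNT co-receptor LRP6, measured 5.29, 9.80 and 5.40 on the arrays labelled mandibular 1 to 3 and 8.92, 7.91 and 5.45 on tibial 1 to 3. Its levels fell into a high and a low set of 3 arrays each, parted by a gap of 2.46, or 5.49-fold, and each set held arrays of both labels. The mandibular mean was 6.83 ± 2.57 (SD, n = 3) and the tibial mean 7.43 ± 1.78 (SD, n = 3), which gives a difference of -0.60 (SE 1.40). Its direction turned when single arrays were left out, to 0.17 without mandibular 1, 0.12 without mandibular 3 and 0.15 without tibial 1, and it was -2.08 without mandibular 2.

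SFRP1, a secreted frizzled-related protein that binds WNT ligands, was arranged nearly the other way round. It measured 7.00, 6.43 and 8.28 on mandibular 1 to 3 and 5.28, 5.28 and 8.06 on tibial 1 to 3. Both low values were tibial, but the array labelled tibial 3 was above mandibular 1 and mandibular 2, so the sites overlapped. The difference was 1.03 (SE 0.84), or 2.04-fold, and it ranged from 0.51 without mandibular 3 to 1.96 without tibial 3. SFRP2, of the same family, measured 13.40, 11.94 and 12.69 against 13.07, 12.82 and 13.10, with its lowest level on mandibular 2. Its difference of -0.32 (SE 0.35) became 0.05 without that array. A second probe set of SFRP2 gave -0.31 (SE 0.40) and was also lowest on mandibular 2.

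The other antagonist genes varied less. DKK3, a divergent member of the dickkopf family, ranged from 9.34 to 10.13 with its highest level on mandibular 2. SFRP5 ranged from 5.57 to 6.05. DKK1, an inhibitor of WNT signalling through LRP6, measured 3.43, 3.50 and 3.23 against 3.65, 3.24 and 3.49, below the lower quartile of all probe sets on every array. Of the 6 antagonist genes, 0 passed the test, 2 had a higher mandibular mean and 4 a higher tibial mean, with a median difference of -0.15.

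WNT ligand genes had differences from -0.26 to 0.40, with a median of -0.06, and 0 of 13 passed. WNT2B, a ligand of the canonical pathway, measured 7.84, 8.76 and 8.73 on mandibular 1 to 3 and 7.35, 8.05 and 8.71 on tibial 1 to 3, a difference of 0.40 (SE 0.40) that was 0.06 without tibial 1 and 0.74 without tibial 3. WNT5B, a ligand that acts mainly outside the beta-catenin route, measured 7.69, 9.21 and 7.62 against 7.68, 8.64 and 7.93. It was highest on mandibular 2 and tibial 2, and on the remaining 4 arrays it lay between 7.62 and 7.93. Its difference of 0.09 (SE 0.47) was -0.43 without mandibular 2, -0.11 without tibial 1 and -0.13 with arrays weighted by their fit. WNT16, a ligand with a role in cortical bone, measured 5.50, 5.73 and 6.07 against 5.24, 4.98 and 5.94, a difference of 0.38 (SE 0.28) that was 0.17 without tibial 2 and 0.66 without tibial 3.

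In WNT7A alone among the ligands of this family the sites did not overlap. It measured 5.97, 6.12 and 6.02 in mandibular and 5.95, 5.80 and 5.90 in tibial cultures, a difference of 0.15 (SE 0.11), or 1.11-fold. The closest values of the sites were 0.01 apart, less than the SD of 0.08 within each of them. The ligand genes WNT2 and WNT8B had mean levels of 3.28 and 3.60, under the lower quartile of all probe sets.

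Of 6 frizzled genes, which encode the WNT receptors, FZD3 had the only separation by site. It measured 5.78, 5.33 and 5.35 in mandibular and 4.15, 4.89 and 5.07 in tibial cultures. The means were 5.49 ± 0.25 (SD, n = 3) and 4.70 ± 0.49 (SD, n = 3), and the difference was 0.78 (SE 0.26), or 1.72-fold (unadjusted p = 0.0223 in limma, adjusted p = 0.9995). Mandibular levels were higher on all arrays, by 0.26 at the closest and with the lowest level on tibial 1, and without that array the difference was 0.51. FZD4, the receptor that also takes norrin, measured 6.19, 7.15 and 6.83 against 7.22, 6.62 and 6.07. Its difference of 0.09 (SE 0.35) became -0.13 without mandibular 2 and -0.20 without tibial 3. FZD7 differed least among these genes, by -0.01, with values from 7.01 to 7.80 in both sites together.

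**Figure D3:**
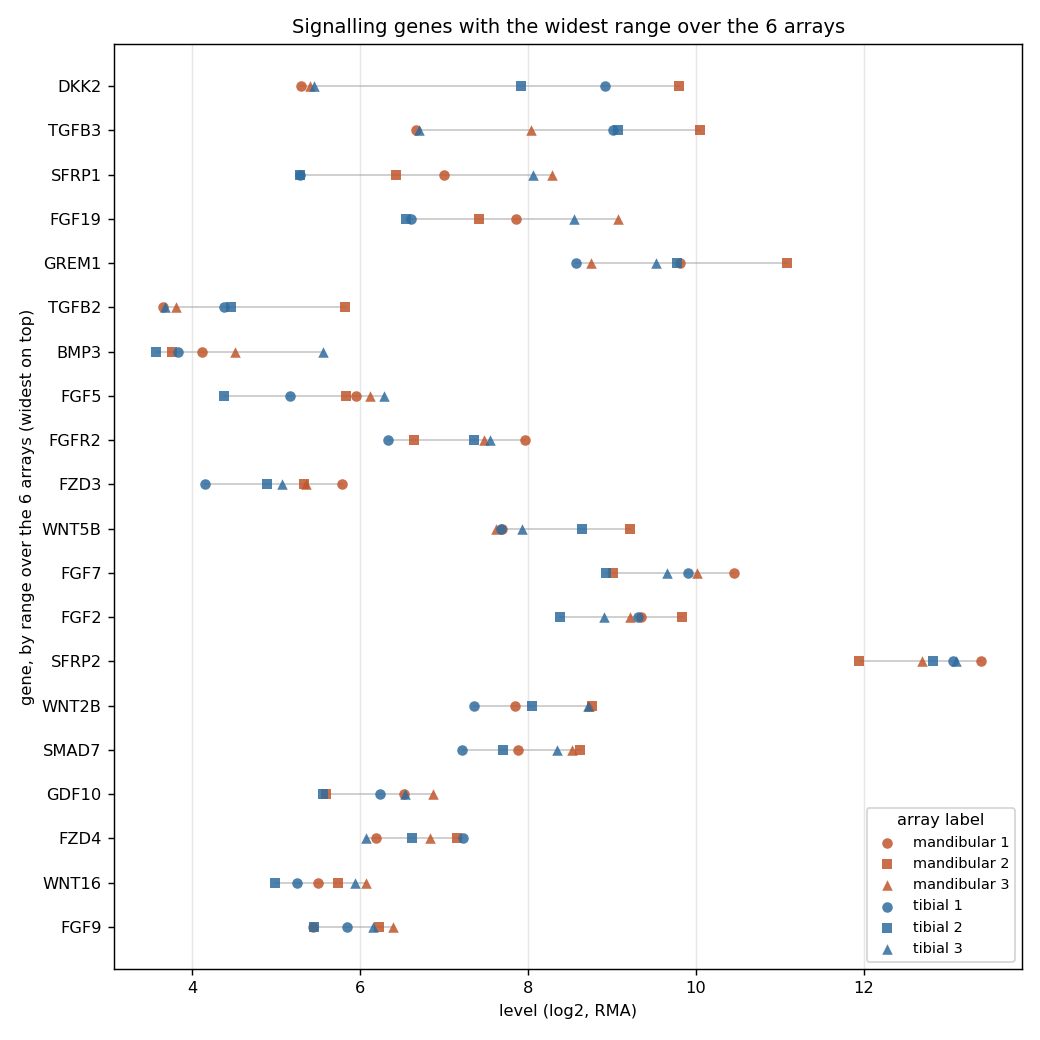
Levels (log2, x axis) of the 20 signalling genes with the widest range, 1 gene to a line (y axis) and 1 point to an array, coloured by labelled site and shaped by sample number. The 3 high points of DKK2 (mandibular 2, tibial 1 and tibial 2) are set off from the 3 low points, and in every gene but FZD3 the points of the sites overlap; positions compare arrays within a gene, not genes with each other.

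Of the 3 TGF-beta ligand genes, TGFB3 and TGFB2 varied widely and TGFB1 did not. TGFB3, one of the isoforms that signal through TGFBR2 and TGFBR1, measured 6.67, 10.05 and 8.03 on mandibular 1 to 3 and 9.01, 9.07 and 6.70 on tibial 1 to 3. Its 3 highest levels were on the arrays on which DKK2 was high, but its widest gap, 1.33, lay below the fourth array, mandibular 3. The mandibular mean was 8.25 ± 1.70 (SD, n = 3) and the tibial mean 8.26 ± 1.35 (SD, n = 3), and between them was a difference of -0.01 (SE 0.98) beside a range of 3.38, or 10.4-fold. The sign of so small a value had no stability: it was 0.78 without mandibular 1, 0.10 without mandibular 3, 0.37 without tibial 1, 0.39 without tibial 2, -0.91 without mandibular 2 and 0.02 with arrays centred on their medians.

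TGFB2 measured 3.65, 5.82 and 3.80 against 4.38, 4.46 and 3.67. Its order of arrays from high to low was the same as that of TGFB3, with mandibular 2 standing 1.37 above the next array. The difference of 0.26 (SE 0.58) became -0.44 without mandibular 2, and the levels on mandibular 1, mandibular 3 and tibial 3 were below the lower quartile of all probe sets. TGFB1, the isoform stored in bone matrix, was steady beside these, at 8.31, 8.39 and 8.49 against 8.54, 8.08 and 8.11, a range of 0.47.

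GREM1, a secreted antagonist that binds BMP ligands, measured 9.81, 11.08 and 8.75 on mandibular 1 to 3 and 8.57, 9.78 and 9.53 on tibial 1 to 3. Mandibular 2 stood 1.27, or 2.42-fold, above the next array. The means were 9.88 ± 1.17 (SD, n = 3) and 9.30 ± 0.64 (SD, n = 3), and the difference of 0.59 (SE 0.60) was -0.01 without mandibular 2 and 1.15 without mandibular 3.

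Of the BMP and GDF ligand genes, 12 of 14 had a range under 1, or 85.7% against 85.2% of all named genes, with differences from -0.34 to 0.22. BMP3, a ligand that opposes osteogenic BMP signals, measured 4.11, 3.76 and 4.51 against 3.83, 3.56 and 5.56. It was highest on tibial 3, by 1.05, and its difference of -0.19 (SE 0.52) was 0.43 without that array. GDF10, also called BMP3B and close to BMP3 in sequence, measured 6.52, 5.59 and 6.87 against 6.24, 5.55 and 6.53, with mandibular 2 and tibial 2 low. Its difference of 0.22 (SE 0.38) was -0.05 without mandibular 3 and -0.06 without tibial 2. BMP2, an inducer of bone formation, ranged from 5.78 to 6.19, and its probe sets disagreed in sign, at 0.14 (SE 0.14) and -0.11 (SE 0.20). GDF11 ranged from 6.66 to 6.89. BMP5, BMP10, BMP15 and GDF3 had mean levels below the lower quartile of all probe sets.

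Receptor genes of the BMP and TGF-beta family had no wide ranges: 0 of 11 reached 1, and the widest was 0.86 in ACVR2A. BMPR2, the type II receptor for BMP ligands, measured 10.30, 10.90 and 10.32 against 10.46, 10.58 and 10.22. TGFBR2, the type II receptor for TGF-beta, measured 8.49, 8.74 and 8.76 against 8.64, 8.33 and 8.90. BMPR1A, a type I receptor, ranged from 8.11 to 8.44. Differences in this group ran from -0.33 for the co-receptor TGFBR3 to 0.50 for ACVR1C, with a median of 0.03.

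ACVR1C, a type I receptor also called ALK7, had the smallest unadjusted p of the 83 genes. It measured 3.30, 3.01 and 3.09 in mandibular and 2.51, 2.61 and 2.76 in tibial cultures. The sites did not overlap, and the difference was 0.50 (SE 0.13), or 1.42-fold (unadjusted p = 0.00715 in limma, adjusted p = 0.9995). All 6 of these levels were below the lower quartile of all probe sets, where signal and background cannot be told apart.

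The SMAD genes, which encode the transducers of these receptors, differed from -0.36 (SMAD9) to 0.59 (SMAD7). SMAD7, an inhibitory SMAD that is itself induced by TGF-beta, measured 7.88, 8.62 and 8.52 against 7.21, 7.70 and 8.35. Its difference was 0.59 (SE 0.33), or 1.50-fold, and ran from 0.32 without tibial 1 to 0.89 without tibial 3. SMAD4, the partner shared by the BMP and TGF-beta branches, was among the steadiest, with a range of 0.24 from 9.85 to 10.09.

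FGF19, a hormone-like FGF best known from the gut, had the largest difference by label after SFRP1. It measured 7.86, 7.42 and 9.07 on mandibular 1 to 3 and 6.60, 6.54 and 8.55 on tibial 1 to 3. The order of the 4 highest arrays was that of SFRP1, with tibial 3 in second place and tibial 1 and tibial 2 lowest. The mandibular mean of 8.12 ± 0.86 (SD, n = 3) exceeded the tibial mean of 7.23 ± 1.15 (SD, n = 3) by 0.89 (SE 0.65), or 1.85-fold, which was 0.41 without mandibular 3 and 1.55 without tibial 3. FGF5, a ligand that limits hair growth, measured 5.95, 5.83 and 6.12 against 5.16, 4.38 and 6.28. The mandibular values lay within 0.29 of each other while the tibial ones spread over 1.90, and the difference was 0.69 (SE 0.44). It was 0.25 without tibial 2 and 1.20 without tibial 3.

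FGF2, a mitogen of stromal cells, measured 9.35, 9.84 and 9.21 in mandibular and 9.31, 8.38 and 8.91 in tibial cultures, a difference of 0.60 (SE 0.28), or 1.52-fold. Only tibial 1 reached into the mandibular values, and without tibial 2 the difference was 0.35. FGF7, a stromal ligand that acts on epithelium, measured 10.46, 9.01 and 10.01 against 9.90, 8.93 and 9.65, with mandibular 2 and tibial 2 low, and a difference of 0.33 (SE 0.41) that was 0.02 without mandibular 1 and 0.74 without mandibular 2. A second FGF7 probe set had a range of 0.45 against 1.52, so the spread of this gene depends on the probe set. FGF9 measured 5.44, 6.22 and 6.39 against 5.84, 5.45 and 6.15, a difference of 0.20 (SE 0.29) that was 0.02 without mandibular 3 or without tibial 2 and 0.49 without mandibular 1.

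Both signalling genes with higher tibial values on all arrays were FGF ligands. Genes separated in this direction were 2.41% of the signalling genes, against 3.57% of all probe sets. FGF16 measured 4.40, 4.32 and 4.32 in mandibular and 5.01, 4.45 and 4.63 in tibial cultures, a difference of -0.35 (SE 0.16) that was -0.20 without tibial 1. FGF23, the phosphate-regulating hormone made by osteocytes, measured 5.42, 5.28 and 5.28 against 5.56, 5.45 and 5.54, a difference of -0.19 (SE 0.11). Neither passed the test (adjusted p = 0.9995 in limma), and the closest values of the sites were 0.04 apart for FGF23 and 0.05 for FGF16. The mean levels, 4.52 for FGF16 and 5.42 for FGF23, lay below the median of all probe sets (5.67). With no detection call, both genes may lie near background, which was not tested.

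Among FGF receptor genes only FGFR2 had a range over 1. It measured 7.96, 6.64 and 7.48 against 6.33, 7.36 and 7.55, with the low values on mandibular 2 and tibial 1, and its second probe set was lowest on the same arrays. The difference of 0.28 (SE 0.43) became -0.02 without mandibular 1 and -0.10 without tibial 1. FGFR1, the receptor most often linked to mesenchymal cells, measured 9.21, 9.26 and 9.42 against 8.61, 8.68 and 9.28, a difference of 0.44 (SE 0.20), with tibial 3 inside the mandibular values. FGFR3 and FGFR4 differed by -0.01 and 0.00. The intracellular FGF homologues FGF12 and FGF14, which regulate sodium channels rather than receptors, had mean levels of 3.50 and 3.17, below the lower quartile of all probe sets. Of the genes that share letters only, BMP1 ranged from 9.81 to 10.50, FGFR1OP from 5.72 to 6.29 and FGFR1OP2 from 7.45 to 8.01.

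Single arrays carried much of this spread. Of the 19 genes with a range of at least 1, the array labelled mandibular 2 had the highest level in 8 (DKK2, TGFB3, TGFB2, GREM1, WNT5B, WNT2B, FGF2 and SMAD7), where it was highest in 16.1% of all named genes with such a range. Tibial 1 or tibial 2 had the lowest level in 13 of the 19, or 68.4%, against 42.8% of those named genes. Both together were the 2 lowest arrays in 6 (SFRP1, FGF19, FGF5, FZD3, SMAD7 and WNT16), or 31.6%, against 21.7% of all named genes with such a range. Placed by distance, the level on the array labelled tibial 3 was closer to the median of the mandibular arrays than to the mean of tibial 1 and tibial 2 in 15 of 19 genes, or 78.9%, against 84.1% of those named genes. For the array labelled mandibular 2 this held in 12 of 19, or 63.2% against 52.8%, and for mandibular 1 in 11 of 19, or 57.9% against 39%. For the remaining 3 arrays it held in 5 or 6 of 19.

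Other cell programs moved with the same arrays. A list of macrophage and monocyte genes, 13 of 15 measured, had means of 4.91, 6.32 and 4.97 on mandibular 1 to 3 and 8.62, 8.18 and 5.51 on tibial 1 to 3, with all 13 genes lower in the mandibular mean. The pan-leukocyte gene PTPRC was between 3.42 and 4.86 on mandibular arrays and at 7.66, 6.96 and 3.91 on tibial 1 to 3. Cell cycle genes, 6 of 10 measured, had list means of 7.61, 7.68 and 8.53 against 6.04, 6.67 and 8.12, all 6 with a higher mandibular mean. Tibial 1 and tibial 2, where SFRP1, FGF19 and FGF5 were lowest, were thus highest for macrophage genes and lowest for cell cycle genes. DKK2 was high on those arrays and also on mandibular 2, as the HOX genes were. The macrophage list was highest on these 3 arrays too, but its 6.32 on mandibular 2 was closer to 5.51 on tibial 3 than to 8.18 on tibial 2. The same 3 arrays were highest for a list of adipocyte genes, 6 of 8 measured, with means of 4.79, 5.66 and 4.74 on mandibular 1 to 3 and 6.44, 5.86 and 4.48 on tibial 1 to 3. LPL, which encodes lipoprotein lipase, measured 4.62, 9.45 and 4.61 against 10.99, 9.07 and 4.42, and PPARG, the adipogenic nuclear receptor, 4.40, 5.32 and 4.41 against 6.43, 6.25 and 3.61. The remaining measured genes of the list, CEBPA, CIDEC, PLIN1 and LEP, did not follow this order. CEBPA was at 6.19, 6.10 and 5.87 against 7.19, 6.92 and 5.97, and CIDEC at 3.96, 3.90 and 4.36 against 4.83, 3.81 and 4.05. The mature fat cell genes PLIN1 and LEP lay at 5.40 to 6.05 and 3.40 to 3.68. The part of these programs in the levels of the signalling genes was not tested. In bulk cultures, fewer cells of a type and less RNA per cell cannot be told apart.

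**Figure D4:**
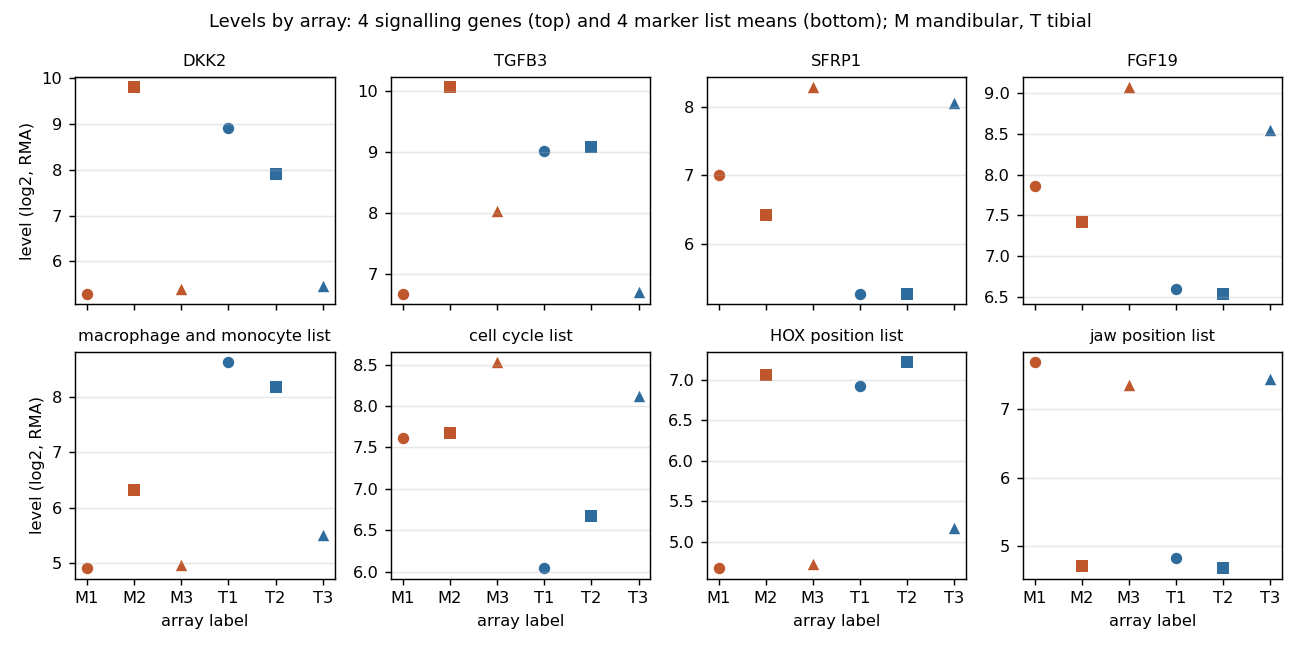
Level on each array (log2, y axis, scaled separately in each panel) for DKK2, TGFB3, SFRP1 and FGF19 in the top row and for the means of the macrophage and monocyte, cell cycle, HOX and jaw gene lists in the bottom row, with M for mandibular and T for tibial arrays on the x axis. DKK2 is high on mandibular 2, tibial 1 and tibial 2, as is the HOX list. SFRP1 and FGF19 are lowest on tibial 1 and tibial 2, where the macrophage list is highest at 8.62 and 8.18, followed by mandibular 2 at 6.32.

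Without the arrays labelled mandibular 2 and tibial 3, which were left out because of where they stood in the data, 1 of the 83 genes passed, or 1.2%, against 0.708% of all probe sets. That gene was DKK2, higher in tibial 1 and tibial 2 than in mandibular 1 and mandibular 3 as 0.548% of all probe sets were, with a difference of -3.07 (SE 0.35), or 8.39-fold (adjusted p = 0.033 in limma). In every other alternative with a test the adjusted p of DKK2 was 0.921 or more. The arrays were left out with levels of these genes known, so this is a description. SFRP1 then differed by 2.36 (SE 0.42), FGF19 by 1.90 (SE 0.40) and FGF5 by 1.27 (SE 0.29), without passing. TGFB3 differed by -1.69 (SE 0.44), while GREM1 was at 0.10 (SE 0.51). GDF10 moved from 0.22 to 0.80 (SE 0.28), FGFR2 from 0.28 to 0.88 (SE 0.38), FGF7 from 0.33 to 0.82 (SE 0.36) and WNT16 from 0.38 to 0.67 (SE 0.25), none of them passing. FGFR1 stood at 0.67 (SE 0.18), FZD3 at 1.05 (SE 0.30) and FGF2 at 0.43 (SE 0.33).

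Some differences turned in sign without these arrays: TGFB2 from 0.26 to -0.69 (SE 0.17), BMP3 from -0.19 to 0.61 (SE 0.22), WNT5B from 0.09 to -0.50 (SE 0.33), FZD4 from 0.09 to -0.41 (SE 0.31) and SFRP2 from -0.32 to 0.10 (SE 0.28). None of these passed the test in either fit. ACVR1C stood at 0.63 (SE 0.18), WNT7A at 0.11 (SE 0.17), FGF16 at -0.37 (SE 0.23) and FGF23 at -0.16 (SE 0.17). Their direction could not turn when arrays were left out, since they were named for having no overlap between sites. An unadjusted p under 0.05 was reached by 14 genes, 16.9% against 9.5% of all probe sets. Values without overlap were seen in 34 genes, 41% against 37.3%.

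**Figure D5:**
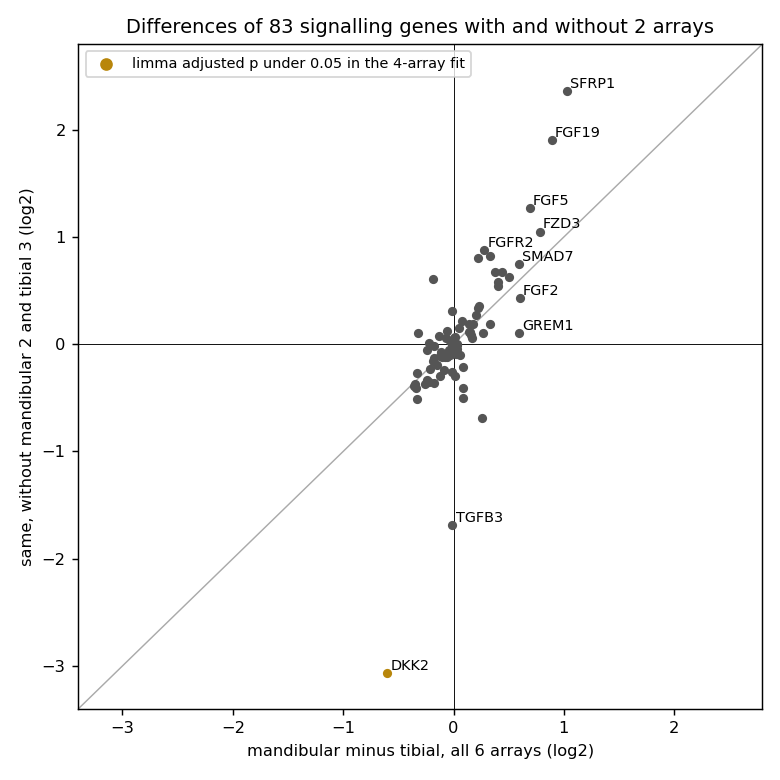
Difference between sites (mandibular minus tibial, log2) with all 6 arrays on the x axis and without mandibular 2 and tibial 3 on the y axis, 1 point for each of the 83 genes, with the line of equality in grey. DKK2, in gold, moves from -0.60 to -3.07 and TGFB3 from -0.01 to -1.69, while SFRP1 moves from 1.03 to 2.36.

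Of 105 other genes listed for these pathways (inhibitors, co-receptors, further ligands, transducers and targets), 65 were measured, and 0 passed in either direction against 0% of all probe sets. The list was chosen with earlier results of these data known, so its shares are a description and no test of the list. At an unadjusted p under 0.05 there were 4, or 6.15% of the 65 against 3.03% of all probe sets. These 4 (BMP4, WIF1, NOG and SMAD6) all had a higher mandibular mean, against 1.35%, and 0 a higher tibial mean, against 1.69%. Means were higher in mandibular cultures for 39 and in tibial cultures for 26, with a median difference of 0.06. The ligand gene BMP4 measured 8.45, 8.08 and 8.28 in mandibular and 7.40, 7.23 and 7.85 in tibial cultures, a difference of 0.78 (SE 0.19). WIF1, which binds WNT ligands, measured 8.48, 7.05 and 7.26 against 5.48, 5.91 and 6.88, a difference of 1.51 (SE 0.48). In neither did the sites overlap, which was so for 4 of the 65 (with SMAD6 and RYK), or 6.15% against 6.92% of all probe sets. Without mandibular 2 and tibial 3, BMP4 differed by 1.05 (SE 0.18) and WIF1 by 2.17 (SE 0.42), and neither passed. On the tibial side, FST, an activin-binding protein gene, differed by -0.32 (SE 0.18) and DCN, a proteoglycan that binds TGF-beta, by -0.71 (SE 0.46). DCN was low on mandibular 2, at 9.99, and between 11.26 and 11.98 on the other 5 arrays, and without mandibular 2 and tibial 3 its difference was -0.07 (SE 0.28).

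Without mandibular 2 and tibial 3, 4 of these 65 genes passed, or 6.15% against 0.708% of all probe sets, 2 with a higher mandibular mean (0.16% of all probe sets) and 2 with a higher tibial mean (0.548%). They are named after their values were seen. RSPO3 and RSPO2 encode R-spondins, secreted proteins that strengthen WNT signalling. RSPO3 measured 4.08, 8.14 and 4.45 on mandibular 1 to 3 and 7.79, 8.02 and 4.03 on tibial 1 to 3, high on the same 3 arrays as DKK2. Its difference was -1.06 (SE 1.42) with all arrays and -3.64 (SE 0.21) without both (adjusted p = 0.00626 in limma). RSPO2 was the other way round, at 5.44, 3.36 and 5.41 against 3.47, 3.55 and 6.41, and went from 0.26 (SE 0.93) to 1.91 (SE 0.16) (adjusted p = 0.0148 in limma). TGFBI, a matrix protein induced by TGF-beta, went from -0.66 (SE 0.96) to -2.36 (SE 0.30) (adjusted p = 0.0457 in limma). NOG, which encodes the BMP antagonist noggin, went from 1.20 (SE 0.43) to 1.92 (SE 0.24) (adjusted p = 0.043 in limma). In all other alternatives run with a test, 0 of the 65 passed. As for DKK2, the arrays were left out with the data known, and the list was chosen with earlier results known. These values and shares are thus a description.

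Some of the genes lie side by side in the Sscrofa11.1 assembly, where all 83 were found by symbol. With no other protein-coding gene between them stood 5 pairs: WNT3 and WNT9B, ACVR1 and ACVR1C, FGF4 and FGF19, WNT1 and WNT10B, and FGF6 and FGF23. BMP3 and FGF5 had 1 gene between them. FGF19 had a range of 2.53 while FGF4 had 0.40. The ranges of WNT1 and WNT10B, at 0.55 and 0.54, and of WNT3 and WNT9B, at 0.60 and 0.78, were closer. Between sites, ACVR1C differed by 0.50 and ACVR1 by -0.09. BMP3 and FGF5 shared their 3 highest arrays, tibial 3, mandibular 3 and mandibular 1 in that order, with ranges of 2.00 and 1.90. The same 3 arrays, in other orders, were highest for SFRP1, FGF19, GDF10 and FGFR2, so this was not particular to the neighbouring pair.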

How the data were processed

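RNA of 6 cultures was measured on Affymetrix porcine arrays. The deposited values are log2 levels of 27558 probe sets that the authors made with RMA in Affymetrix Expression Console and handled in Transcriptome Analysis Console 3.0, per the submitters' processing notes. RMA equalises array distributions, so levels are relative. The sources used here give no settings and no build. The array number limits the precision.

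Names came from the platform annotation (13157 probe sets with 1 symbol, 523 with several, 13878 unnamed here). The probe set with the highest mean stood for a gene. For 7 genes there was more than 1 probe set, and in 2 of them, WNT3A and GDF5, the values were identical.

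Sites were compared with limma 3.58.1 in R 4.3.3 (lmFit, eBayes, unpaired, two-sided, Benjamini-Hochberg over all probe sets, threshold 0.05), checked on simulated data. An exact permutation test of 3 against 3 cannot go below 0.1 and was not used. Genes and lists were chosen with earlier results of these data known. Values and differences are given for up to 5 genes without overlap in each direction and for the 20 of widest range, levels for a fixed set, and of other pathway genes the 2 with smallest p in each direction. Alternatives were a replicate block, median centring, a minimum mean level of 5, no moderation, trend and robust moderation, array weights, averaged probe sets and leaving out arrays. WNT5A, FZD1, SMAD3 and INHBA, from the fixed set, are not analysed here.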

Additional observations from a re-analysis of the deposited data

How the results depend on the processing

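With all 6 arrays, 0 probe sets and 0 of the 83 genes were called in the fits with a replicate block, median centring, a minimum mean level of 5, no moderation, trend and robust moderation, or array weights. Leaving out single arrays gave 0 to 2 calls over all probe sets (1 without tibial 1, 2 without tibial 3) and 0 among the 83. With mandibular 2 and tibial 3 both left out, a setting chosen after seeing the data, there were 195 calls, 1 of them among the 83 and 4 among the 65 other pathway genes, of which 0 were called in every other setting. The count without overlap, 5, was 3 of 61 genes at a mean level of at least 5 (5.94% of all such probe sets), 10 to 20 in single omissions and 34 without both arrays. The median difference of the 83 stayed between -0.03 and 0.04 in single omissions. The median level of the 83, another quantity, had an SD of 0.118 between arrays of a site.

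Of the 24 named differences, 14 kept their sign in every setting in which they were run. For 5 of these (ACVR1C, FZD3, WNT7A, FGF16 and FGF23) leaving out or weighting arrays could not turn the sign, since their sites did not overlap. ACVR1C and FGF16 were not in the fit at a mean level of at least 5. The replicate block and the changes of moderation left all differences as they were, so they could turn none. Centring turned TGFB3 to 0.02 and array weights turned WNT5B to -0.13. Without both arrays the sign turned for TGFB2 (-0.69), BMP3 (0.61), WNT5B (-0.50), SFRP2 (0.10) and FZD4 (-0.41). In single omissions the ranges of those that turned were -2.08 to 0.17 for DKK2, -0.91 to 0.78 for TGFB3, -0.01 to 1.15 for GREM1, -0.44 to 0.64 for TGFB2, -0.57 to 0.43 for BMP3, -0.10 to 0.64 for FGFR2, -0.43 to 0.37 for WNT5B, -0.68 to 0.05 for SFRP2, -0.06 to 0.59 for GDF10 and -0.20 to 0.38 for FZD4. The cause was not tested.

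Whether the replicate numbers pair the arrays cannot be settled here. Deviations from the site means of same-numbered arrays correlated at -0.03, 0.21 and 0.47 over all probe sets. By these deviations, mandibular 1 and mandibular 2 each correlated best with another number. Such deviations depend on each other within a site, and mandibular 2 and tibial 3 did not stand with their labelled sites. By levels, the best tibial match was tibial 3 for mandibular 1 (0.9886), tibial 2 for mandibular 2 (0.9836) and tibial 3 for mandibular 3 (0.9913). The replicate block gave 0 calls, as did the fit without it. It changed the SE of the named differences, from 0.65 to 0.18 for FGF19, 0.84 to 0.31 for SFRP1 and 0.33 to 0.18 for SMAD7. The SE rose for ACVR1C, FZD3, WNT7A, FGFR2, FGF2 and FZD4, stayed at 0.11 for FGF23 and fell for the rest. The lowest adjusted p of a named difference with the block was 0.876 in limma. Levels below the lower quartile of 3.9 limit what can be read for 12 of the 83 genes. With no detection call that quartile is no measured floor, so genes above it may lie near background too.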
